A study of Homo sapiens with 8 samples.

Results

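The LGR4 mRNA was bound by IGF2BP1 mainly within its coding sequence (CDS), with 12 peaks after DMSO and 14 after AVJ16, and neither of its paralogs LGR5 and LGR6 carried any peak. Peaks were taken from both deposited lists where they lay on the gene's own strand within the GENCODE release 44 limits of LGR4, LGR5 or LGR6. These 12 and 14 peaks stand among 22311 peaks of the DMSO list and 22123 of the AVJ16 list. LGR4 was selected on its CDS peaks in these same lists, and the set was thus chosen by measured values. For that reason the peaks' number, place in the CDS, enrichment and presence in both lists are a description, and no test was made on them.

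IGF2BP1 is an oncofetal RNA-binding protein that stabilizes many of its target mRNAs, and AVJ16 is a small molecule made to inhibit it. Binding was measured by eCLIP, in which RNA crosslinked to the immunoprecipitated (IP) protein is sequenced and set against a size-matched input made without the antibody. The cells were H1299, a human non-small cell lung carcinoma line with an epithelial-like shape, labelled as wild type. Cells of both groups came from the same thaw and were prepared in 2 batches, and each group received either 0.01% DMSO, the solvent control, or 1.5 µM AVJ16 for 24 h. Each treatment had 2 IP and 2 input libraries, 8 in all, and the replicates of a treatment were merged into 1 list before deposition, in a way that the sources used here do not describe. No value per replicate and no read count is given in the lists. Differences between treatments therefore have no error and no test, and the depth behind each value is unknown. A peak entered a list only at or above 3 on both scales, the log2 fold enrichment of IP over input and the −log10 p, so a site missing from a list may lie just under either threshold. Enrichment is relative to input, and the level of the LGR4 mRNA after each treatment was not analysed here.

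LGR4 is a receptor for R-spondins. Its large extracellular part is built of leucine-rich repeats that hold the ligand, followed by membrane-spanning helices and a cytoplasmic tail. R-spondin bound to LGR4, LGR5 or LGR6 keeps the ubiquitin ligases ZNRF3 and RNF43 from removing Frizzled receptors from the cell surface, and thereby raises WNT signaling. LGR5 and LGR6 are best known as markers of epithelial stem cells, whereas LGR4 is expressed more broadly.

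On GRCh38, LGR4 (ENSG00000205213) spans chr11:27365961-27472790 on the minus strand. Its principal transcript (ENST00000379214) has 18 exons and 5250 nt, with a 5′UTR of 488 nt, a CDS of 951 codons (2853 nt without the stop codon, mRNA positions 489 to 3341) and a 3′UTR of 1906 nt after the stop codon. Exons 2 to 4, 6, 8, 9, 11, 13 and 14 each measure 72 nt, or 24 codons, while exon 18 measures 3183 nt and holds 1274 nt of the CDS and the whole 3′UTR. Positions below count from 1 at the 5′ end of this spliced mRNA. LGR5 (ENSG00000139292) lies at chr12:71439798-71586310 and LGR6 (ENSG00000133067) at chr1:202193799-202319781, both on the plus strand.

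The bases at the sites that the comparison turns on are given 5′ to 3′ as RNA, read from the GENCODE transcript and equal base by base to the hg38 genome. Shown first are both exon junctions with peaks on either side, with the bases of the downstream exon in capitals. The first joins exon 5 (chr11:27385253-27385267) to exon 6 (chr11:27384393-27384407), and the second joins exon 9 (chr11:27380640-27380654) to exon 10 (chr11:27380325-27380339).
junction of exons 5 and 6: aagccugguaguucuGCAUCUUCAUAACAA
junction of exons 9 and 10: ugaucuucauucccuAGUCAUUCGUGGUGC

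Next are the centre of the peak with the lowest p in both lists (chr11:27368386-27368415) and that of the peak with the highest enrichment after DMSO (chr11:27368023-27368052). Capitals here and in the AVJ16-only sites mark the letters CAUU, 1 of the motifs searched below.
lowest p site: cCAUUgaucacugcaaucucuaucagcccc
highest DMSO enrichment: agaccugagggcuacugguccgacuguggc

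The stretch around the end of the CDS (chr11:27367854-27367883), where both lists had a peak, is shown with the stop codon in capitals.
stop codon: caagaguuaaagacUGAacuacugugugug

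Last are the AVJ16-only sites that stood apart from every DMSO peak, 1 in the CDS (chr11:27368889-27368918) and 1 in the 3′UTR (chr11:27367010-27367031).
AVJ16 list only, CDS: ggggcagauucgcugaauuuggCAUUuggu
AVJ16 list only, 3′UTR: CAUUaaugaauacuuccuaaua

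Of the LGR4 peaks, 11 of 12 overlapped the CDS after DMSO (91.7%, 95% Wilson interval 64.6 to 98.5%) and 12 of 14 after AVJ16 (85.7%, 60.1 to 96.0%). Among all peaks, 17.3% of the DMSO list and 20.3% of the AVJ16 list overlapped a CDS. The intervals cover counting error only, and since CDS binding was the reason for choosing LGR4, nothing is read from the gap to all peaks. No LGR4 peak lay in an intron or in the 5′UTR in either list, and no peak of either list lay on the opposite strand of any of the 3 genes. DMSO peaks of LGR4 covered 583 nt of the CDS (20.4%) and AVJ16 peaks 863 nt (30.2%). In both lists together 553 nt of the CDS were covered, which is 94.9% of the CDS bases covered after DMSO and 64.1% of those after AVJ16. The added coverage after AVJ16 came to 310 nt, against 30 nt covered only after DMSO. Over the whole lists, peaks overlapping a CDS numbered 3849 after DMSO and 4481 after AVJ16, with summed lengths of 249441 and 270349 nt. Bases covered in only 1 list were not counted over all genes, so nothing particular to LGR4 is read from the added coverage. Within the 3′UTR the order was the other way round, with 122 nt (6.40%) after DMSO and 84 nt (4.41%) after AVJ16. Per kb of sequence, the CDS held 3.86 peaks after DMSO and 4.21 after AVJ16, and the 3′UTR 1.05 and 1.57. In these densities the peak over the stop codon counts in both parts.

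**Figure D1:**
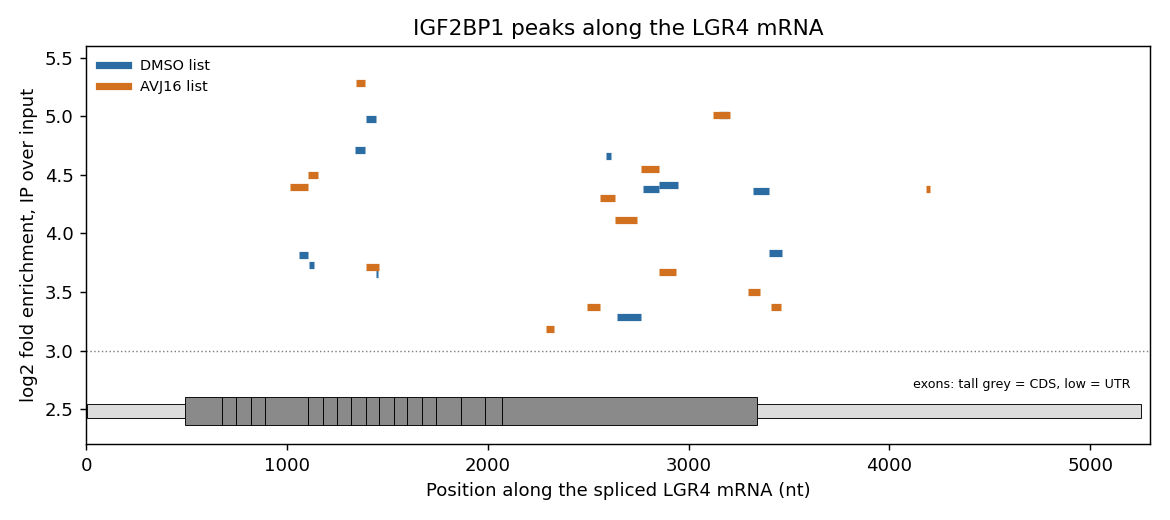
IGF2BP1 peaks along the spliced LGR4 mRNA (position in nt), each bar spanning a peak at its log2 fold enrichment of IP over input, in blue for the DMSO list and orange for the AVJ16 list. The dotted line marks the threshold of 3, and the strip shows the exons with the CDS as tall boxes; the DMSO bar at 3152 is hidden by the AVJ16 bar at the same level of 5.01. Peaks fall in 2 stretches of short exons, in the second part of the CDS and around the stop codon, and 1 AVJ16 peak lies alone in the 3′UTR.

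Projected on the spliced mRNA, the peaks of both lists merged into 7 sites, of which 5 had peaks after both treatments, 2 only after AVJ16 and 0 only after DMSO. Exons 5, 6, 9, 10 and 18 were bound, and exons 1 to 4, 7, 8 and 11 to 17 had no peak in either list. Peaks in exons 5, 6, 9 and 10 lie in the part of the mRNA that codes for the leucine-rich repeats. Exon 18, which codes for the membrane-spanning part and the cytoplasmic tail, held 7 peaks after DMSO and 10 after AVJ16. Its CDS was covered over 30.5% after DMSO and 47.6% after AVJ16, and the CDS of exons 1 to 17 (1579 nt) over 12.3% and 16.3%. Divided into 5 equal parts from the start codon, the CDS held 0, 5, 0, 2 and 4 LGR4 peaks after DMSO and 0, 4, 0, 4 and 4 after AVJ16. Over all CDS peaks the shares rose along the CDS, from 10.3% in the first part to 33.6% in the last after DMSO and from 9.88% to 34.1% after AVJ16. Each peak was counted in the part that held its midpoint. The middle part of the LGR4 CDS was free of peaks in both lists. No midpoint fell in the first part, but the exon 5 peaks of both lists reached into its 3′ end, from mRNA positions 1057 after DMSO and 1016 after AVJ16.

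The site nearest the 5′ end covered codons 176 to 223 and ran across the junction of exons 5 and 6 (mRNA positions 1016 to 1156). After DMSO, the peak in exon 5 (chr11:27385255-27385301) was enriched by 3.81 on the log2 scale, at a −log10 p of 6.68. Its partner after AVJ16 (chr11:27385253-27385342) reached 4.39, with a −log10 p of 14.4. In exon 6 the DMSO peak (chr11:27384377-27384405) was enriched by 3.73 on the log2 scale, and the AVJ16 peak (chr11:27384357-27384408) 4.50. Both sides of the junction were therefore more enriched after AVJ16, by 0.58 and 0.77 on the log2 scale, and the covered length went from 76 to 141 nt. On the linear scale the enrichment over input was 14.0-fold and 13.2-fold after DMSO, and 21.0-fold and 22.6-fold after AVJ16.

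A second site crossed the junction of exons 9 and 10 (mRNA positions 1338 to 1459, codons 284 to 324) and held the highest enrichment of LGR4 after AVJ16. In exon 9 the log2 fold enrichment was 4.71 after DMSO (chr11:27380640-27380692) and 5.28 after AVJ16 (chr11:27380640-27380686), a difference of 0.57. The value of 5.28, a 38.9-fold enrichment, lay above 99.4% of the CDS peaks of its list. On the exon 10 side the direction was opposite. The DMSO list had a peak at 4.98 (chr11:27380289-27380340) and a second of 14 nt at 3.65 (chr11:27380275-27380288), and the AVJ16 list had 1 peak over both stretches at 3.71 (chr11:27380271-27380341). For the larger DMSO peak the difference of AVJ16 minus DMSO was −1.27, the widest in either direction within LGR4, and for the smaller one, with the same partner, it was 0.06. Over the whole site the DMSO peaks covered 118 nt and the AVJ16 peaks 116 nt.

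**Figure D2:**
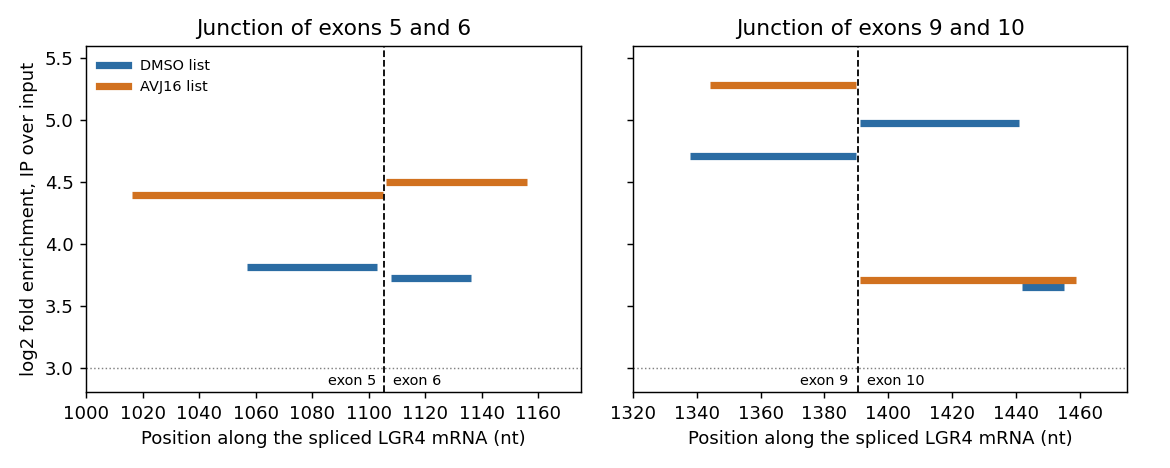
Peaks at both exon junctions of LGR4 with binding on either side, drawn by mRNA position (nt) and log2 fold enrichment of IP over input, with the DMSO list in blue, the AVJ16 list in orange, the junction dashed and the threshold of 3 dotted. At exons 5 and 6 both AVJ16 peaks (4.39 and 4.50) lie above the DMSO peaks (3.81 and 3.73), and at exons 9 and 10 the order turns at the junction.

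Peaks that meet at a splice junction lie far apart on the genome but next to each other on the mature mRNA, here across introns of 845 nt after exon 5 and 300 nt after exon 9. The exon 10 peaks ran 1 nt (DMSO) and 2 nt (AVJ16) past the annotated exon start into the intron, the exon 6 peak of the AVJ16 list ran 1 nt past it, and all other LGR4 peaks stayed within exons. Junctions with a CDS peak ending or starting within 5 nt on both sides numbered 287 in 202 genes after DMSO and 355 in 233 genes after AVJ16, and LGR4 had 2 of them in each list. Of the LGR4 CDS peaks, 5 of 11 (45.5%) after DMSO and 4 of 12 (33.3%) after AVJ16 had an end within 5 nt of an exon edge, beside 34.2% and 36.0% of all peak and gene pairs in the CDS.

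Exon 18 carried the widest site, 455 nt long (mRNA positions 2492 to 2946, codons 668 to 820). Its DMSO peaks had log2 fold enrichments of 4.66, 3.29, 4.38 and 4.41 from 5′ to 3′. The AVJ16 peaks that overlapped them most had 4.30, 4.12, 4.55 and 3.67, and a further AVJ16 peak at the 5′ end (chr11:27368654-27368719) had 3.37 and no DMSO partner. Neighbouring peaks of the site moved in different directions, by −0.36, 0.83, 0.17 and −0.74. Of these, the peak with a difference of 0.17 had the lowest p of LGR4 in both lists, with a −log10 p of 17.5 after DMSO (chr11:27368361-27368440) and 23.3 after AVJ16 (chr11:27368360-27368450). Averaged over the 300 bases in a peak of both lists, the difference across the site was 0.07 on the log2 scale.

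Upstream of it, the CDS site found only after AVJ16 (mRNA positions 2287 to 2329, codons 600 to 614) had the lowest enrichment of all LGR4 peaks, with a log2 value of 3.18 and a −log10 p of 3.73, both close to the thresholds of 3. Downstream, the most enriched DMSO peak (mRNA positions 3152 to 3195, chr11:27368016-27368059) had a log2 fold enrichment of 5.01, and its AVJ16 partner (chr11:27368007-27368092) also had 5.01. This pair, a 32.2-fold enrichment in both lists, lay above 98.3% of CDS peaks after DMSO and above 98.8% after AVJ16. The levels were the same to the printed digits while the peak was 44 nt long after DMSO and 86 nt after AVJ16.

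The last shared site began in the CDS, held the stop codon and ended in the 3′UTR (mRNA positions 3296 to 3466, from codon 936). The peak over the stop codon had a log2 fold enrichment of 4.36 after DMSO (chr11:27367811-27367890) and 3.50 after AVJ16 (chr11:27367856-27367915). The next peak, wholly in the 3′UTR, began 57 nt after the stop codon and was enriched by 3.83 after DMSO (chr11:27367745-27367810), with its partner at 3.37 after AVJ16 (chr11:27367752-27367802). Both were lower after AVJ16, with differences of −0.86 and −0.46, the second within the limit of 0.5. The stop codon peaks, of 80 nt after DMSO and 60 nt after AVJ16, shared only 35 nt, so the −0.86 compares partly different stretches. Further downstream the 3′UTR held no DMSO peak and 1 AVJ16 peak of 22 nt, 836 nt after the stop codon (chr11:27367010-27367031), enriched by 4.38 on the log2 scale at a −log10 p of 5.14.

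All 12 DMSO peaks of LGR4 overlapped an AVJ16 peak by at least 1 nt (95% Wilson interval 75.8 to 100%), beside 66.2% of all DMSO peaks and 64.6% of the DMSO CDS peaks. With an overlap of at least 50% of both peaks, 9 of the 12 did. Of the AVJ16 peaks of LGR4, 11 of 14 (78.6%, 52.4 to 92.4%) overlapped a DMSO peak, beside 70.8% of all AVJ16 peaks and 58.5% of AVJ16 CDS peaks. Many LGR4 peaks touch their neighbours, so they are not independent of each other, and the intervals do not take this into account. LGR4 was also chosen on its peaks in these same lists, so nothing is read from the gap to all peaks. The difference of AVJ16 minus DMSO in log2 fold enrichment ranged from −1.27 to 0.83 over the 12 shared peaks, with a median of 0.03 and an SD between peaks of 0.69. With the limit of 0.5 taken from the study, 4 peaks were higher after AVJ16, 3 were lower and 5 lay within the limit. The study applied it to changes in read counts of the same clusters, after a test for an interaction with treatment. Here it was applied without such a test and between peaks whose ends differ. By its own measure, the paper reported IGF2BP1 binding to LGR4 as upregulated by AVJ16. Of all shared DMSO peaks, 12.6% were higher and 20.1% lower, with a median of −0.06 (14759 peaks), and of the shared CDS peaks 11.1% were higher and 15.6% lower, with a median of −0.04 (2488 peaks). Higher and lower peaks thus occurred side by side in LGR4, and with 12 peaks nothing particular to LGR4 is read from the counts.

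**Figure D3:**
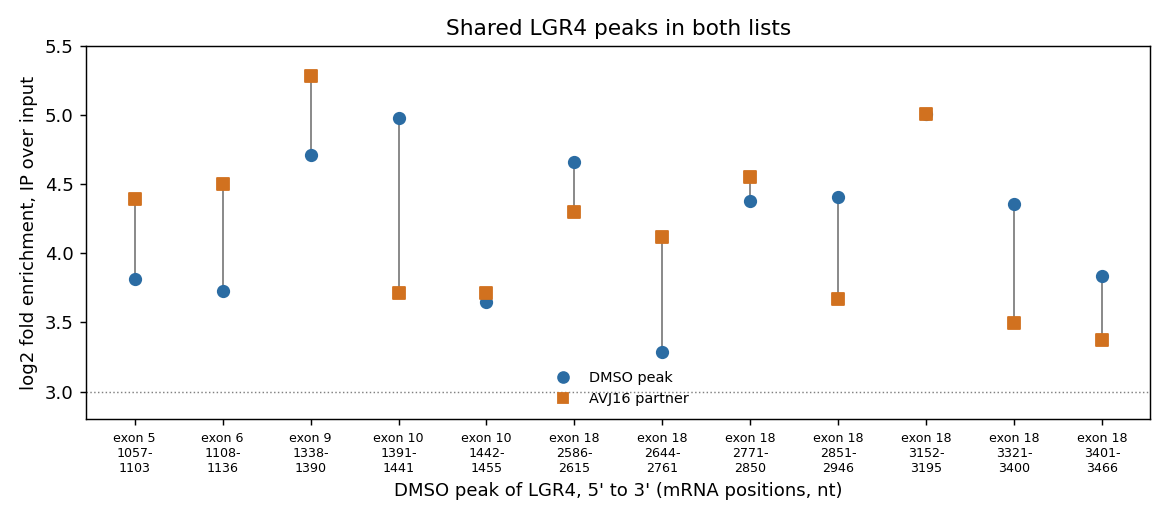
Log2 fold enrichment of IP over input of the 12 DMSO peaks of LGR4 (blue circles) and of the AVJ16 peaks that overlap them most (orange squares), from 5′ to 3′ with exon and mRNA positions (nt); the grey line is the difference and the dotted line the threshold of 3. At exons 5, 6 and 9 the AVJ16 value is higher, and the last 2 peaks, at the stop codon and in the 3′UTR, are lower after AVJ16 (3.50 and 3.37) than after DMSO (4.36 and 3.83). Both exon 10 peaks share 1 AVJ16 partner.

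Taken base by base, 618 nt of the LGR4 mRNA lay in a peak of both lists. Their mean log2 fold enrichment was 4.20 after DMSO and 4.17 after AVJ16, a mean difference of −0.03. By this measure 36.2% of the bases were higher and 28.2% lower by more than 0.5. The LGR4 CDS peaks had a median log2 fold enrichment of 4.38 after DMSO and 4.21 after AVJ16, beside 3.48 and 3.45 for all CDS peaks of each list. Their median −log10 p was 9.62 after DMSO and 10.1 after AVJ16, beside 12.7 and 12.8 for all CDS peaks of each list. Exactly the same enrichment value occurred in other peaks of the same list for 6 of 12 LGR4 peaks after DMSO and 9 of 14 after AVJ16, and for 11144 of 22311 and 9984 of 22123 peaks over the whole lists.

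In sequence, the parts of the CDS in a peak of either list were close to the rest of it in GC content. It was 44.6% over these bases, 44.4% over those in no peak, 42.1% over those in a peak of both lists and 30.4% over the 3′UTR. By single base, the parts in a peak of either list held more C (25.1% against 22.2% in no peak) and U (30.9% against 28.6%). They held less G (19.5% against 22.2%) and A (24.5% against 26.9%). Between sites the GC content ranged from 22.7% in the 3′UTR site found only after AVJ16 to 58.1% at the site of highest DMSO enrichment. The motifs looked for on the RNA strand only were GGAC, which holds the core of the methylation motif for m6A, a mark IGF2BP proteins are known to read, and CAUU, CAUA and CAUC, which contain the CAU of earlier described IGF2BP binding motifs. A CAU motif may share its first base with the last base of GGAC or CAUC, and no other overlap is possible. In windows of 61 nt centred on the CDS peaks of LGR4, GGAC was present in 1 of 11 after DMSO and 2 of 12 after AVJ16, beside 15.3% of all 61-nt windows of the LGR4 CDS and 18.5% and 18.4% of the windows at all CDS peaks. CAUU was present in 5 of 11 and 6 of 12, beside 36.0% of the LGR4 CDS windows and 27.4% and 28.3% of the windows at all CDS peaks. CAUA was found in 1 of 11 and 2 of 12, beside 16.6% of the LGR4 CDS windows and 16.8% and 16.6% at all CDS peaks. CAUC was found in 3 of 11 and 3 of 12, beside 20.0% of the LGR4 CDS windows and 34.9% and 34.6% at all CDS peaks. With 11 and 12 windows that partly overlap, nothing is read from these counts about a motif.

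LGR5 and LGR6, the other R-spondin receptors, had 0 peaks in both lists on either strand. The remaining leucine-rich repeat receptors of the family, TSHR, FSHR, LHCGR, RXFP1 and RXFP2, also had 0. At least 1 peak was present in 25.8% of 20046 protein-coding genes after DMSO and in 23.2% after AVJ16, so absence from the lists was the common case. The expression of these genes in H1299 cells was not analysed here.

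Among the 639 protein-coding genes with at least 8 peaks in each list, the median gene had 4.76% of its peaks in the CDS after DMSO and 6.25% after AVJ16. A larger share than that of LGR4 was found in 27 genes after DMSO and 44 after AVJ16. By number rather than share, 44 of the 1372 genes with a CDS peak after DMSO had more CDS peaks than LGR4, and 58 of 1403 after AVJ16. The 5 genes with CDS shares most like those of LGR4, by the summed absolute difference over both lists, were KIAA1549L, QSER1, ATP13A3, FAT1 and SLIT2, at 2.78, 3.75, 4.30, 6.17 and 6.90 percentage points. QSER1, with a CDS of 5592 nt against 2853 nt in LGR4, had more peaks, 46 of 50 in the CDS after DMSO and 41 of 46 after AVJ16. FAT1, a giant cadherin, had 19 of 22 and 28 of 33, and SLIT2, a secreted guidance cue with leucine-rich repeats, 19 of 21 and 8 of 10. For KIAA1549L the counts were 25 of 28 and 31 of 36, and for ATP13A3, a transporter of polyamines, 15 of 17 and 28 of 33. The covered share of the CDS in these genes ran from 9.19% in FAT1 to 34.4% in QSER1 after DMSO, with LGR4 at 20.4%. After AVJ16 it was 34.7% in QSER1, 31.4% in KIAA1549L and 30.2% in LGR4. It was 29.0% in ATP13A3 (14.3% after DMSO), 12.6% in FAT1 and 5.56% in SLIT2 (9.90% after DMSO). In FAT1, with a CDS of 13764 nt, and in SLIT2 the 3′UTR was covered more than the CDS. Its covered share was 24.1% and 11.9% after DMSO, and 31.2% and 11.5% after AVJ16. In LGR4, KIAA1549L, QSER1 and ATP13A3 the 3′UTR was covered less than the CDS in both lists. Likeness in the share of peaks thus did not extend to covered length in FAT1 and SLIT2.

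**Figure D4:**
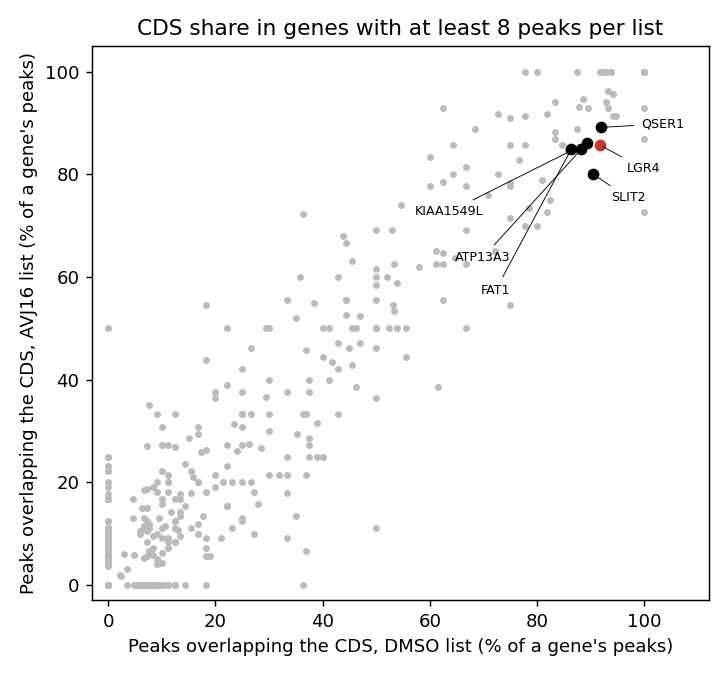
Percent of a gene's peaks that overlap its CDS in the DMSO list (horizontal) and in the AVJ16 list (vertical) for the 639 protein-coding genes with at least 8 peaks in each list; 1 point is 1 gene. LGR4 (red, 91.7% and 85.7%) and the 5 genes most like it (black) lie at the upper right, while the median gene has 4.76% and 6.25%.

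Binding along the pathway of LGR4 was described over 33 other genes for R-spondins and a few further ligands, WNT receptors and their signal chain. Of the WNT genes, only WNT5A was on this list. After DMSO 18 of them carried a peak, after AVJ16 17, and 17 carried one after both treatments, beside the 25.8% and 23.2% of all protein-coding genes. Of their peaks, 19 of 93 (20.4%) overlapped a CDS after DMSO and 20 of 102 (19.6%) after AVJ16, near the 17.3% and 20.3% of the whole lists. Of the 67 shared DMSO peaks of these genes, 10 were higher and 29 lower after AVJ16, and the median over the genes' own medians was −0.32. Over all shared DMSO peaks 12.6% were higher and 20.1% lower, with a median of −0.06, and the median in LGR4 was 0.03. These 2 medians are over peaks, whereas the −0.32 is over genes, so they are unlike measures. FZD8, LRP6 and ZNRF3 entered the latter with 1 shared peak each.

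Among ligands, the R-spondins RSPO1, RSPO2, RSPO3 and RSPO4 had no peak, nor did NDP and TNFSF11, and WNT5A had none in its CDS. Of the 12 receptors and coreceptors, 8 were bound in each list. FZD1, a Frizzled receptor for WNT, had 7 peaks after DMSO and 13 after AVJ16, with 0 in the CDS, and 3 of its 7 shared peaks were higher and 4 lower. A single CDS peak appeared after AVJ16 in both FZD3 and FZD6. LRP6, the WNT coreceptor, had 1 peak after DMSO and 4 after AVJ16, of which 1 and 3 lay in the CDS. ZNRF3, 1 of the ligases that LGR4 counteracts, had 4 peaks after DMSO and 3 after AVJ16 with 0 in the CDS, and the other, RNF43, had none.

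In the signal chain, DVL3, which relays the signal from Frizzled, had 13 peaks after DMSO and 10 after AVJ16, and the kinase GSK3B had 11 and 13, all outside the CDS. APC, the scaffold of the complex that degrades β-catenin, was bound in its CDS like LGR4, with 4 of 5 peaks after DMSO and 8 of 8 after AVJ16 and a median difference of 0.36 over 4 shared peaks. CTNNB1, the gene of β-catenin, had 6 of 8 peaks in the CDS after DMSO and 1 of 2 after AVJ16. LEF1, a transcription factor that acts with β-catenin, had 6 of 7 and 4 of 5, with a median difference of −0.61 over 7 shared peaks. TCF7, a factor of the same family, had 2 of 4 and 2 of 5. A CDS peak was thus found in 5 of the 33 genes after DMSO and in 7 after AVJ16, beside 6.84% and 7% of all protein-coding genes. Most protein-coding genes carried no peak at all. Of the listed genes with a peak, 5 of 18 after DMSO and 7 of 17 after AVJ16 had one in the CDS. Of all protein-coding genes with a peak, 1372 of 5178 and 1403 of 4660 did.

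**Figure D5:**
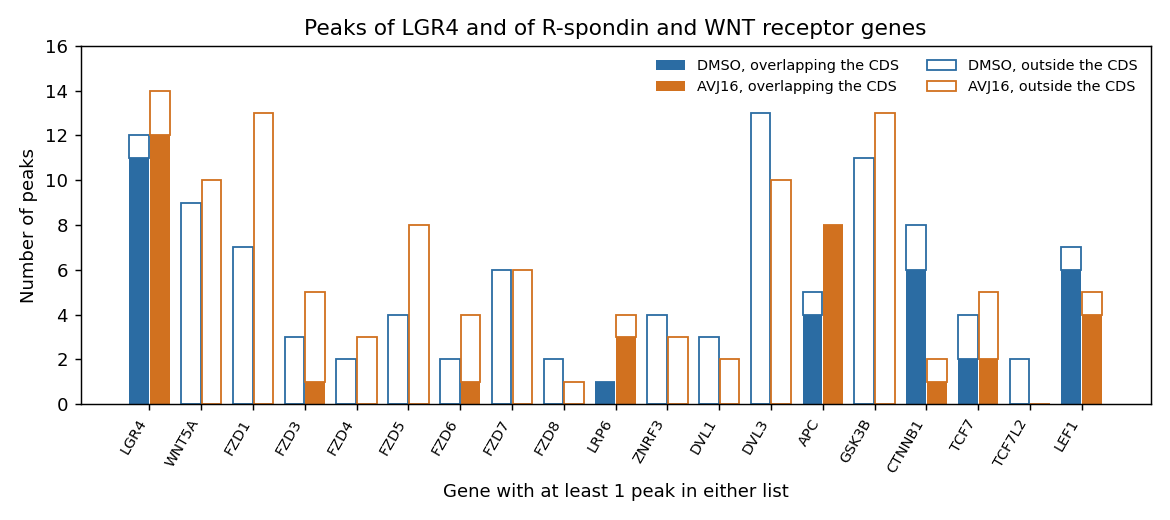
Number of peaks in LGR4 and in each R-spondin or WNT receptor list gene with at least 1 peak, after DMSO (blue) and AVJ16 (orange); filled bars are peaks that overlap the CDS and open bars the others. LGR4 has 11 of 12 and 12 of 14 in the CDS, while DVL3, GSK3B, FZD1 and WNT5A have 0.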

How the data were processed

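IGF2BP1 eCLIP was measured in H1299 cells after DMSO or AVJ16, and samples were grouped by treatment as labelled. Adapters were cut by the authors with cutadapt, reads from repetitive elements were set aside and the rest aligned with STAR. After PCR duplicates had been collapsed, CLIPper was used to find peaks, which were then compared with the paired input. Versions are not given in the sources used here. The genome build named in the submitters' processing notes is hg38. The deposited log2 fold enrichment (IP over input) and −log10 p of each peak were computed by the authors against the inputs of the same treatment, with −log10 p limited at 400. The file labels name IDR (irreproducible discovery rate), but how the replicates were merged and what 1 enrichment value combines is not described in the sources used here. A library's depth cannot be read from the lists, and 0 columns were left out.

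Here peaks were assigned on their strand to GENCODE release 44 and projected on the principal transcript. The partner of a DMSO peak was the AVJ16 peak overlapping it most, by at least 1 nt, so a difference compares peaks whose ends differ, and 1 AVJ16 peak can be partner of several DMSO peaks. Differences beyond 0.5 were counted. No test was made. The genes named are LGR4, LGR5 and LGR6, the list of R-spondin and WNT receptor genes and of other LGR family receptors (those with a CDS peak and the 3 with the most peaks), and the 5 genes with CDS shares most like LGR4. RSPO1 to RSPO4, NDP, TNFSF11, WNT5A, ZNRF3 and RNF43 were named after their values were seen. The members, lists and motifs were chosen with earlier results of these data known. Alternatives were other thresholds, overlaps, limits, pairings, joining of touching peaks and centring. Python 3.11.15, numpy 2.4.6, scipy 1.17.1 and matplotlib 3.10.9 were used, and assignment, projection and pairing were tested on simulated data.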

Additional observations from a re-analysis of the deposited data

How the results depend on the processing

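Of 49 values recomputed under another setting, 34 stayed close to the reported value and 15 moved further. Close meant a move under 0.1 with the same sign for a log2 difference, within 1.5 times for a count or a covered share, and within the Wilson interval for the share of peaks in the CDS. These bounds are wide, and a fall from 12 to 9 shared peaks counted as close. Some settings returned exactly the reported value, such as the CDS of the principal transcript alone. A log2 fold enrichment of at least 4 gave 7 DMSO and 8 AVJ16 peaks, with 100% of the DMSO peaks in the CDS (7 of 7) and 13.1% and 19.3% of the CDS covered. At that threshold in both lists, 5 peaks were shared, with a median difference of 0.14, 1 higher and 0 lower, and a mean per base of 0.15. Fewer peaks enter by construction. Joining touching peaks gave 100% of DMSO peaks in the CDS (9 of 9), since the 3′UTR peak joins the peak over the stop codon. With an overlap of at least 50% of both peaks, 9 peaks were shared and the median difference was 0.17, with 4 higher and 2 lower. The pair over the stop codon did not meet that overlap. With a limit of 1 there were 0 higher and 1 lower. Centring on the median of all shared peaks (−0.06) turned the mean per base from −0.030 to 0.030, which is within the range where no direction was called. LGR5 and LGR6 had 0 peaks on either strand. No paired analysis was possible because each deposited list pools the replicates of a treatment. Without values per replicate or read counts, no difference between treatments at a single LGR4 peak can be set against replicate error.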
